A study of Homo sapiens with 9 samples.

Results

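Expression of the sestrins, REDD1, the TSC genes and the mTOR components was examined by RNA sequencing in the MDA-MB-231 line, established from a triple-negative breast cancer. The 10 genes were chosen by name, as stress brakes on mTOR (SESN1, SESN2, SESN3, DDIT4, TSC1, TSC2 and DEPTOR) and core complex subunits (MTOR, RPTOR and RICTOR), out of 58735 genes counted. Vehicle-treated cells (DMSO), cells treated with erastin (erastin-R) and cells treated with RSL3 (RSL3-R) had 3 libraries each, and the treated cells are described as survivors of increasing concentrations of the drug. Erastin blocks cystine import and RSL3 inhibits GPX4, and both induce ferroptosis, a cell death driven by lipid peroxidation. Neither the number of clones that survived nor whether libraries of a condition came from separate cultures is stated, so the p values measure the spread between these libraries, which may be technical.

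mTOR is a kinase that couples nutrients and growth factors to protein synthesis and cell growth. With RPTOR it forms mTORC1, which is recruited to the lysosome when amino acids are present, and with RICTOR it forms mTORC2, which phosphorylates AKT. Sestrins hold mTORC1 off by binding GATOR2, REDD1 (encoded by DDIT4) and the TSC1-TSC2 complex act through the small GTPase RHEB, and DEPTOR binds mTOR itself.

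Total counts per library ranged from 15405102 to 17273464, and all 10 genes passed the filter on low counts, among 16188 genes tested. The cell line markers VIM, CD44 and KRT18 reached at least 1270, 231 and 69.5 CPM (counts scaled by library size) in every library, ESR1 and PGR stayed at or under 0.746 and 0.124 CPM, and ERBB2 ranged from 59.8 to 96.9 CPM. Of the markers of other cell types, PTPRC, CD3E and ALB stayed at or under 1.49 CPM, whereas COL1A1 ranged from 6.85 to 12 CPM and PECAM1 from 1.27 to 13.8 CPM. Several of these markers moved with the condition. Against vehicle without overlap, PECAM1 and KRT18 were lower in erastin-R cells (1.27 to 2.14 against 9.5 to 10.9 CPM, and 69.5 to 87.7 against 165 to 173 CPM). In RSL3-R cells CDH1 (3.21 to 3.8 against 0.865 to 1.67 CPM), PTPRC (1.22 to 1.49 against 0.247 to 0.656), PECAM1 (11.6 to 13.8) and COL1A1 (9.03 to 12 against 6.85 to 8.82) lay above vehicle, and ERBB2 (59.8 to 63.6 against 87.8 to 96.9) and VIM (1270 to 1410 against 1440 to 1520) below it. CD44 lay below vehicle in both populations (271 to 302 in erastin-R and 231 to 237 in RSL3-R against 308 to 321 CPM). EPCAM, at low counts, also lay below vehicle in erastin-R cells (0.954 to 1.52 against 1.73 to 2.86 CPM). In RSL3-R cells EPCAM overlapped vehicle (1.31 to 2.05 CPM). The part of these markers in the results was not tested. Erastin-R replicate 1 stood apart from replicates 2 and 3 of its condition on principal component 3 (-35.7 against 14.4 and 13), which held 6.71% of the variance, and values without it are given where it decides a result. A gene is called changed below where edgeR's quasi-likelihood test gave a Benjamini-Hochberg adjusted p under 0.05, and differentially expressed where the absolute log2 fold change was also at least 1.

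Against vehicle, erastin-R cells showed an increase of 7 of the 10 genes (SESN2, SESN3, DDIT4, TSC1, TSC2, DEPTOR and RICTOR), RPTOR was lower, and SESN1 and MTOR were not called. Over all genes tested 54% were called in this comparison, 27.1% higher and 26.8% lower. In RSL3-R cells SESN2, TSC1 and RICTOR were higher and MTOR and RPTOR lower, and the other 5 were not called, against 48.7% of all genes called, 23.8% higher and 24.9% lower. Between the treated populations, SESN2 and TSC1 were higher and SESN3, DDIT4, TSC2 and MTOR lower in RSL3-R than in erastin-R cells, where 49.2% of all genes were called, 22.3% higher and 26.9% lower. SESN2 was the only one of the 10 genes that was differentially expressed, in both comparisons with vehicle, as were 13.4% of all genes for erastin-R and 10.1% for RSL3-R cells, and none of the 10 was so between the treated populations (10.3% of all genes, edgeR, also 0 in every alternative). The groups did not overlap for 8 of the 10 genes in erastin-R against vehicle (57.9% of all genes), for 6 in RSL3-R against vehicle (61.9%) and for 7 between the treated populations (55.2%). Both comparisons with vehicle share the same 3 control libraries, and in bulk RNA a change in all cells and a change in the share of some cells cannot be told apart.

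**Figure D1:**
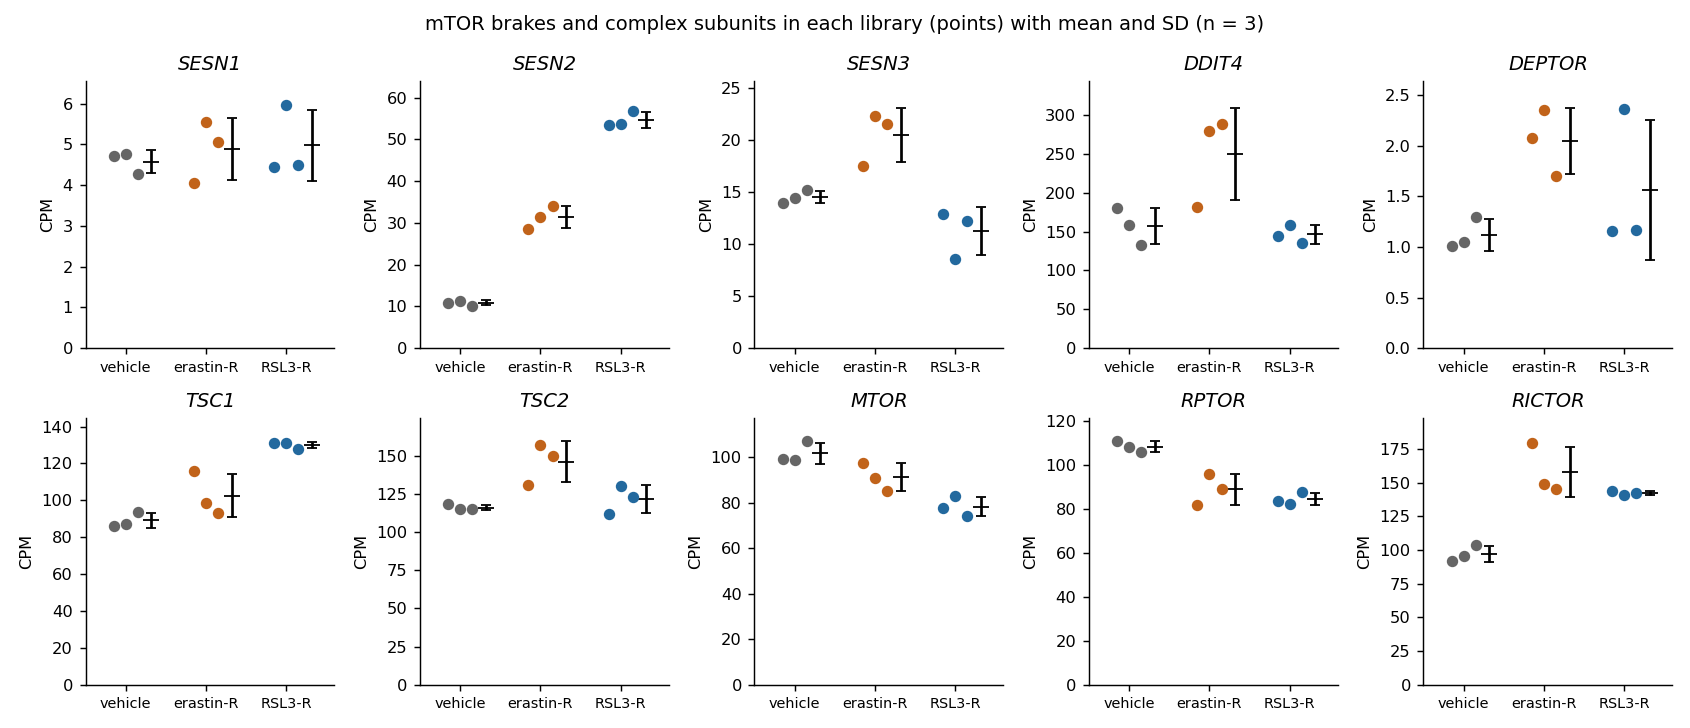
CPM of each gene (vertical axis, from 0) in each library of the 3 conditions (horizontal axis), with the mean and SD over 3 libraries beside the points. SESN2 rises in steps from 10.2 to 11.4 CPM in vehicle over 28.6 to 34 in erastin-R to 53.4 to 56.9 in RSL3-R, while SESN3 and DDIT4 are highest in erastin-R and RPTOR is lower in both treated populations than in vehicle.

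**Figure D2:**
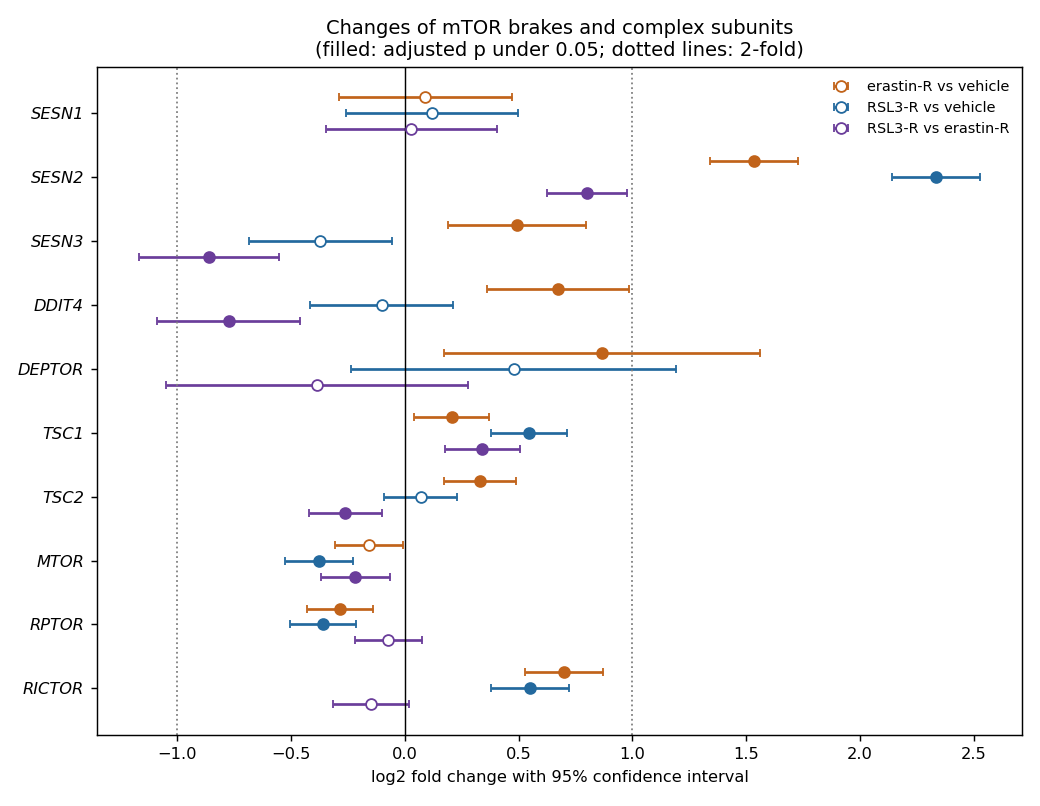
Log2 fold changes (horizontal axis) with 95% confidence intervals from edgeR for each gene in the 3 comparisons. Filled points have an adjusted p under 0.05, dotted lines mark a 2-fold change, and SESN2 is the only gene past that line in a called comparison.

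The promoters of SESN2 and DDIT4 are shown because both genes are known targets of the stress factor ATF4. Both were called higher than vehicle in erastin-R cells, but only SESN2 was in RSL3-R cells. The sequences (RefSeq, GRCh38.p14) lie before the annotated start, at chr1:28259268-28259517, plus strand, and at chr10:72273674-72273919, plus strand. They run 5′ to 3′ on the strand of the gene, and the capitals mark a CCAAT box, which reads ATTGG when it lies on the opposite strand.
SESN2: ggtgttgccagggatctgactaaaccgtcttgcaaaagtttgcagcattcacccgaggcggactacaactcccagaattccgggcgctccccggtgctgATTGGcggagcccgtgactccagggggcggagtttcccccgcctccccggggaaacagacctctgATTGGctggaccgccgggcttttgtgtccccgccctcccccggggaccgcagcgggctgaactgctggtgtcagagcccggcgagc
DDIT4: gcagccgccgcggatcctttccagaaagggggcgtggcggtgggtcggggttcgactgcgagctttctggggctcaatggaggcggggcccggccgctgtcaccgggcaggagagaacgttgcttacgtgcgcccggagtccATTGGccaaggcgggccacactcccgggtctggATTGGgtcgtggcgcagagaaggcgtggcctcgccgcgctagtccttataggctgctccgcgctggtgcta
Each held 2 CCAAT boxes, both on the opposite strand, within the 250 bases searched before the RefSeq start. The motif CCAAT was found on either strand in 32% of 35116 windows of that length. Neither window held the core of the C/EBP-ATF response element (TGATGNAA, 3.14% of windows), the cyclic AMP response element (TGACGTCA, 1.65%), the E-box (CACGTG, 6.34%) or the forkhead core (GTAAACA, 2.98%), all searched on both strands. Sequence of these genes beyond the windows and variants of the motifs were not searched. The hypoxia response core ACGTG, which every CACGTG also holds, occurred in DDIT4 but not in SESN2, and in 18.5% of all windows. A window was at hand for 9 of the 10 genes, with DEPTOR the gene left out.

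The sestrins did not change together. SESN2 (chr1:28259527-28282491, plus strand, 10 merged exons) encodes the sestrin that is induced by ATF4 and NRF2 and that senses leucine. Its expression was 10.8 ± 0.624 CPM (SD, n = 3) in vehicle, 31.4 ± 2.73 for erastin-R and 54.6 ± 1.93 for RSL3-R cells, and the 3 conditions did not overlap. Beyond the increase in each population over vehicle, SESN2 was higher in RSL3-R than in erastin-R cells (log2 fold change 0.80, SE 0.0823, edgeR adjusted p = 3.76e-06). All 15 alternative settings kept this difference called, with log2 fold changes of 0.74 to 0.90.

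SESN3 (chr11:95165513-95232541, minus strand) encodes a sestrin known as a target of FOXO factors. It was measured at 14, 14.4 and 15.2 CPM in vehicle, at 17.5, 22.3 and 21.6 in erastin-R and at 12.9, 8.58 and 12.2 in RSL3-R replicates 1 to 3. All erastin-R libraries lay above and all RSL3-R libraries below the vehicle libraries. The increase in erastin-R cells was called (log2 fold change 0.49, SE 0.141, adjusted p = 0.00921), and so was the difference of RSL3-R from erastin-R cells (-0.86, SE 0.144, adjusted p = 0.000237). The lower level in RSL3-R than in vehicle missed the threshold (-0.37, SE 0.147, adjusted p = 0.0508), with adjusted p values from 0.0095 to 0.219 over the 15 settings and 5 of them under 0.05. Among those were the models without erastin-R replicate 1 (-0.37, adjusted p = 0.0095), without erastin-R replicate 2 (-0.37, 0.0496) and without RSL3-R replicate 1 (-0.44, 0.047). Without RSL3-R replicate 2, the lowest library, the value was -0.21 (adjusted p = 0.219).

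SESN1 (chr6:108986437-109094819, minus strand), another sestrin that binds leucine, was low in all conditions. It was counted at 4.57 ± 0.276 CPM in vehicle, 4.88 ± 0.757 for erastin-R and 4.97 ± 0.862 for RSL3-R cells, and the conditions overlapped. The log2 difference from vehicle was 0.09 in erastin-R cells (95% interval -0.29 to 0.47, adjusted p = 0.69) and 0.12 in RSL3-R cells (-0.26 to 0.50, adjusted p = 0.603). Changes within these intervals are not excluded.

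The deposited FPKM values (fragments scaled by exon length and library size) allow the 3 sestrins to be compared with each other. Their summed FPKM was 5.34 ± 0.181 in vehicle, 11.8 ± 1.18 for erastin-R and 17.7 ± 0.577 for RSL3-R cells. SESN2 made up 56.5 to 59.1% of that sum in vehicle, 74.1 to 77.2% in erastin-R and 88.1 to 89% in RSL3-R cells. SESN2 was thus the sestrin of highest FPKM in every condition, and the share held by SESN1 and SESN3 was smallest in RSL3-R cells. Its rank in vehicle rests on the exon lengths used, 3453 bases for SESN2 and 10573 for SESN3. In CPM, SESN3 exceeded SESN2 there (14.5 ± 0.594 against 10.8 ± 0.624). In vehicle-treated cells SESN2 was at 0.374 ± 0.0368 times the FPKM of MTOR, against 1.21 ± 0.185 times in erastin-R and 2.45 ± 0.21 times in RSL3-R cells. These ratios are a description and were not tested.

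**Figure D3:**
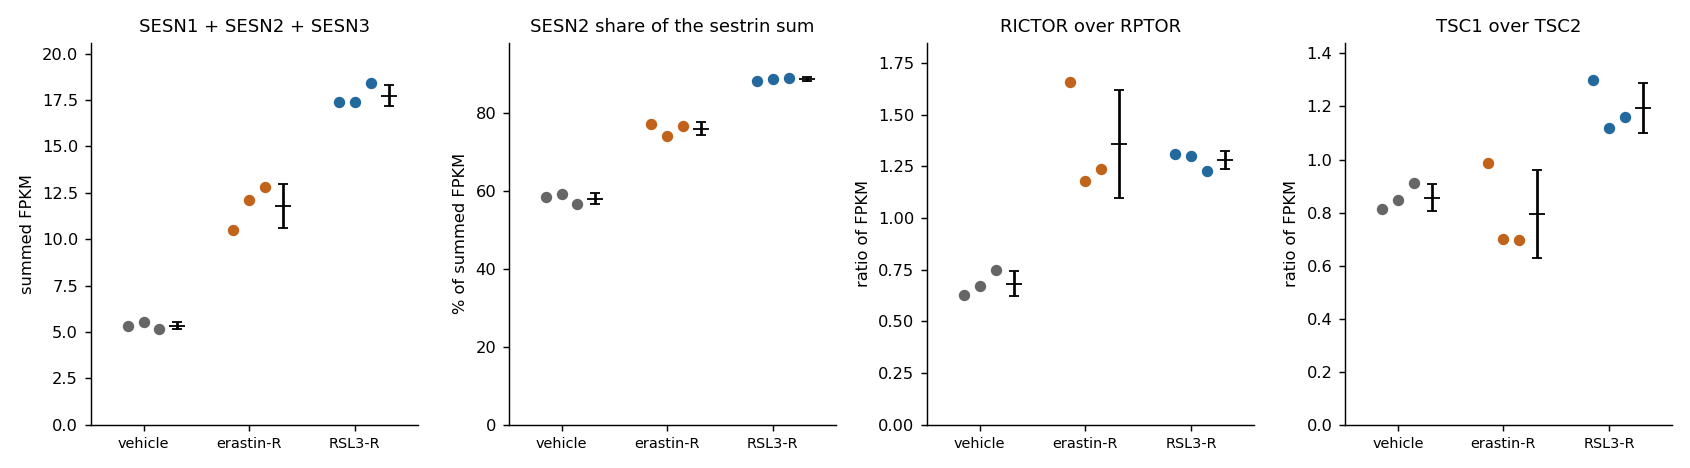
Summed sestrin FPKM, the percentage of that sum held by SESN2, and the FPKM ratios of RICTOR to RPTOR and of TSC1 to TSC2 (vertical axes, from 0) in each library, with mean and SD over 3 libraries. The SESN2 share is at or under 59.1% in vehicle and at or above 88.1% in RSL3-R, and RICTOR over RPTOR is under 1 only in vehicle.

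DDIT4 (chr10:72273920-72276036, plus strand) encodes REDD1, which is induced by hypoxia, glucocorticoids and endoplasmic reticulum stress. It was the most abundant of the 10 transcripts in every condition, at 75.5 ± 11.3 FPKM in vehicle. Replicates 1 to 3 were at 180, 158 and 133 CPM in vehicle, at 182, 280 and 289 in erastin-R and at 144, 159 and 136 in RSL3-R cells. Erastin-R replicate 1 was close to the highest vehicle library, while the other two erastin-R libraries were well above it. DDIT4 was higher in erastin-R cells (log2 fold change 0.67, SE 0.146, adjusted p = 0.00144), and without erastin-R replicate 1 the value was 0.85. RSL3-R cells did not differ from vehicle past the threshold (-0.10, 95% interval -0.42 to 0.21, adjusted p = 0.593) and were below erastin-R cells (-0.78, SE 0.146, adjusted p = 0.000608). DDIT4 was at 24.3 ± 3.16 times the FPKM of SESN2 in vehicle, at 13.3 ± 2.27 times in erastin-R and at 4.5 ± 0.475 times in RSL3-R cells. An antisense gene, DDIT4-AS1, covers 41.2% of the exon length of DDIT4 and was at 0 counts in every library.

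The genes most like SESN2 over the 9 libraries, by the distance between log2 CPM values centred on each gene's mean, were PHGDH (distance 0.258), SEL1L3 (0.363) and IL6 (0.417) among 12960 protein-coding genes compared. PHGDH encodes the first enzyme of serine synthesis and IL6 an inflammatory cytokine. PHGDH and IL6 gave log2 fold changes of 1.38 and 1.44 for erastin-R and of 2.24 and 2.44 for RSL3-R against vehicle.

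The genes of the TSC complex differed between the populations. TSC1 (hamartin; chr9:132891348-132946874, minus strand) stabilises TSC2 (tuberin; chr16:2047465-2089487, plus strand), which switches RHEB off. TSC1 was at 86.1, 87.4 and 93.8 CPM in vehicle, at 116, 98.4 and 93.4 in erastin-R and at 131, 131 and 128 in RSL3-R replicates 1 to 3. The RSL3-R libraries lay above all others, and the erastin-R libraries overlapped those of vehicle. TSC1 was higher in RSL3-R cells (log2 fold change 0.55, SE 0.0771, adjusted p = 5.17e-05), also against erastin-R cells (0.34, SE 0.0767, adjusted p = 0.00224). The call in erastin-R cells (0.20, SE 0.0773, adjusted p = 0.0376) was lost in 10 of the 15 settings, and without erastin-R replicate 1 the value was 0.10 (adjusted p = 0.105). It was also lost without vehicle replicate 1 (0.18, adjusted p = 0.125), without vehicle replicate 2 (0.19, 0.118) and without any 1 of the RSL3-R libraries (0.20 each, adjusted p = 0.0525 to 0.0579).

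TSC2 was at 118, 115 and 115 CPM in vehicle, at 131, 157 and 150 in erastin-R and at 112, 130 and 123 in RSL3-R cells. Only the erastin-R libraries lay wholly above vehicle (log2 fold change 0.33, SE 0.0743, adjusted p = 0.00187), whereas RSL3-R cells gave 0.07 (95% interval -0.09 to 0.23, adjusted p = 0.475). The difference of RSL3-R from erastin-R cells was -0.26 (SE 0.0743, adjusted p = 0.00973). That call was lost without RSL3-R replicate 1 (-0.17, adjusted p = 0.114), without RSL3-R replicate 3 (-0.23, 0.0589) and in 3 other settings. The FPKM ratio of TSC1 to TSC2 was 0.813 to 0.91 in vehicle and 1.12 to 1.3 in RSL3-R cells, and in erastin-R cells it was 0.987 in replicate 1 and 0.696 to 0.7 in the others.

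The exons of TSC2 share 778 bases (3.96% of its exon length) with PKD1 and 402 bases (2.05%) with NTHL1, both on the opposite strand. Whether counting used strand is not stated, so reads in those stretches cannot be told apart. PKD1 was higher than vehicle in erastin-R cells (log2 fold change 0.52, SE 0.13, adjusted p = 0.00382) and in RSL3-R cells (0.47, SE 0.13, adjusted p = 0.00837). NTHL1 was lower in RSL3-R cells (-0.65, SE 0.16, adjusted p = 0.00419), and gave -0.19 in erastin-R cells (adjusted p = 0.32). Among the windows of the 10 genes that were searched, only that of TSC2 held the C/EBP-ATF core, which overlapped an E-box there (capitals, chr16:2047864-2047893, plus strand, RefSeq GRCh38.p14, inside annotated exon sequence).
TSC2: gccccgtCACGTGATGCAAggatcgccggc

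DEPTOR, the mTOR-binding inhibitor that is itself degraded when mTOR is active, was near the lower end of what these libraries measure. It had 17, 17 and 21 counts in vehicle, 35, 37 and 28 in erastin-R and 18, 38 and 20 in RSL3-R replicates 1 to 3. The erastin-R libraries lay above vehicle, and 1 of the 3 RSL3-R libraries was as high as they were. The log2 fold change in erastin-R cells was 0.87 (SE 0.322, adjusted p = 0.0352). The call was lost without vehicle replicate 1 (0.79, adjusted p = 0.097), without vehicle replicate 2 (0.82, 0.0908) and without erastin-R replicate 2 (0.76, 0.104). RSL3-R cells gave 0.48 against vehicle (95% interval -0.24 to 1.19, adjusted p = 0.255), which became 0.06 (adjusted p = 0.908) without RSL3-R replicate 2, and -0.39 against erastin-R cells (adjusted p = 0.319), which became -0.81 (adjusted p = 0.0485) without that library.

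The scaffold subunits of the complexes moved in opposite directions. RPTOR (chr17:80544819-80966371, plus strand) recruits the substrates of mTORC1, and RICTOR (chr5:38937919-39074408, minus strand) defines mTORC2. Their promoters are shown for that reason, at chr17:80544588-80544818, plus strand, and at chr5:39074409-39074649, minus strand (RefSeq, GRCh38.p14, CCAAT boxes in capitals as before).
RPTOR: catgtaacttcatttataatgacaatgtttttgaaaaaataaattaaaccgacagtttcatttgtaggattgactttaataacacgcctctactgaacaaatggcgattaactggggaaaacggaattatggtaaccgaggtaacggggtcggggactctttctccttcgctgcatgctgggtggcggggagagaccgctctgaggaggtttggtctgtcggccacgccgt
RICTOR: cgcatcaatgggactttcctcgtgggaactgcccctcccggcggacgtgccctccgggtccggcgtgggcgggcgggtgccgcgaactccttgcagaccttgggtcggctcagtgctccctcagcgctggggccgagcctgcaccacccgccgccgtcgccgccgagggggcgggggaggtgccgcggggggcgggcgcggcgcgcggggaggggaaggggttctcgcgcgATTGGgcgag
The RPTOR window held none of the motifs searched, and the RICTOR window held 1 CCAAT box and 1 ACGTG.

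RICTOR was at 91.8, 95.3 and 104 CPM in vehicle, at 179, 149 and 145 in erastin-R and at 144, 141 and 142 in RSL3-R cells. Every library of both treated populations exceeded the highest vehicle library. RICTOR was higher in erastin-R cells (log2 fold change 0.70, SE 0.0793, adjusted p = 5.91e-06) and in RSL3-R cells (0.55, SE 0.0793, adjusted p = 6.15e-05), with a difference between the populations of -0.15 (95% interval -0.32 to 0.02, adjusted p = 0.132). All 15 settings kept both calls against vehicle, at 0.60 to 0.76 in erastin-R and 0.51 to 0.62 in RSL3-R cells. OSMR, the oncostatin M receptor gene on the opposite strand, shares 229 bases with the exons of RICTOR (1.69% of their length). It was lower in erastin-R (log2 fold change -0.49, SE 0.0574, adjusted p = 7.21e-06) and higher in RSL3-R cells (0.24, SE 0.0571, adjusted p = 0.00291), a change opposite to that of RICTOR in the former and in the same direction in the latter.

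RPTOR was at 111, 108 and 106 CPM in vehicle, at 81.6, 95.9 and 89.1 in erastin-R and at 83.6, 82.2 and 87.7 in RSL3-R cells. All treated libraries lay below the lowest vehicle library. RPTOR was lower than vehicle in erastin-R cells (log2 fold change -0.29, SE 0.0676, adjusted p = 0.00257), as it was in RSL3-R cells (-0.36, SE 0.0677, adjusted p = 0.000581), and all 15 settings kept both calls. The populations differed by -0.07 (95% interval -0.22 to 0.07, adjusted p = 0.401), and without erastin-R replicate 1 by -0.13 (adjusted p = 0.0498). The FPKM ratio of RICTOR to RPTOR was 0.629, 0.67 and 0.748 in vehicle, 1.66, 1.18 and 1.24 in erastin-R and 1.31, 1.3 and 1.23 in RSL3-R replicates 1 to 3. RPTOR transcript exceeded RICTOR transcript in each vehicle library, and the reverse held in each treated library.

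MTOR (chr1:11106535-11262507, minus strand), the catalytic subunit of both complexes, was at 99.4, 98.8 and 107 CPM in vehicle, at 97.4, 91 and 85.1 in erastin-R and at 77.9, 82.8 and 74.3 in RSL3-R cells. The RSL3-R libraries were the lowest and the 3 conditions did not overlap. MTOR was lower in RSL3-R cells (log2 fold change -0.38, SE 0.0701, adjusted p = 0.00052), which all 15 settings kept. In erastin-R cells it gave -0.16 (SE 0.0697, adjusted p = 0.0691), and without erastin-R replicate 1 -0.21 (adjusted p = 0.00369). The difference of RSL3-R from erastin-R cells (-0.22, SE 0.0703, adjusted p = 0.0193) was lost without RSL3-R replicate 1 (-0.18, adjusted p = 0.11), without RSL3-R replicate 3 (-0.14, 0.178) and in 3 other settings.

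Ordered by FPKM in vehicle-treated cells, DDIT4 was followed by RPTOR (10.4 ± 0.222), MTOR (8.31 ± 0.393), RICTOR (7.1 ± 0.488), TSC2 (5.85 ± 0.0896), TSC1 (5.01 ± 0.24), SESN2 (3.1 ± 0.174), SESN3 (1.36 ± 0.0583), SESN1 (0.884 ± 0.0516) and DEPTOR (0.423 ± 0.0588), and no neighbours in this order overlapped. In erastin-R cells RICTOR (11.5 ± 1.28) came next after DDIT4, and SESN2 (8.96 ± 0.822) after RICTOR. The values of SESN2 and RPTOR overlapped there, as did those of RPTOR and MTOR, MTOR and TSC2, and SESN1 and DEPTOR. In RSL3-R cells SESN2 (15.7 ± 0.586) came directly after DDIT4 and above RICTOR (10.4 ± 0.127), without overlap. MTOR and TSC2 overlapped in these cells, and so did SESN3 with SESN1 and SESN1 with DEPTOR. These orders depend on the exon length used for each gene, which merges the exons of all annotated transcripts. It ran from 2058 bases for DDIT4 to 19626 for TSC2. In CPM, which leave length out, TSC2 (116 ± 1.9) exceeded RPTOR (108 ± 2.49) in vehicle.

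The other subunits of the mTOR complexes and their assembly factors were mostly lower in RSL3-R cells. Of 7 tested, 6 were lower and 1 (MAPKAP1, a subunit of mTORC2) higher than in vehicle, with a median log2 fold change of -0.53 against 0.005 over all genes. In erastin-R cells 3 were lower and 4 not called (median -0.17 against -0.004). Over all genes 24.9% were lower in RSL3-R and 26.8% in erastin-R cells. TELO2, a chaperone of the mTOR kinase family, was the only one differentially expressed, at 49.3 ± 3.15 CPM in vehicle, 42.7 ± 8.63 for erastin-R and 24 ± 0.616 for RSL3-R cells (for the latter -1.03, adjusted p = 1.05e-05). MLST8, which is shared by both complexes, was at 39.2 ± 1.77, 32.5 ± 2.09 and 25 ± 1.38 CPM in the same order, and was lower in both populations (adjusted p = 0.0106 and 1.86e-05). TTI1, the partner of TELO2, was lower in both as well (log2 fold changes -0.17 and -0.53, adjusted p = 0.0268 and 7.45e-06).

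Around the TSC complex, TBC1D7, a further subunit of it, was at 11.7 ± 2.38 CPM in vehicle and 24.9 ± 3.66 in erastin-R cells (log2 fold change 1.09, adjusted p = 2.02e-05), and at 16 ± 0.181 in RSL3-R cells. RHEB, the target of the complex, was at 210 ± 2.62, 265 ± 28.6 and 165 ± 1.89 CPM in vehicle, erastin-R and RSL3-R cells. It was higher in erastin-R (adjusted p = 0.00112) and lower in RSL3-R cells (adjusted p = 0.00112). DDIT4L, the paralogue of REDD1, was under 1.5 CPM in every library. Its increase in RSL3-R cells (1.20, adjusted p = 0.0358) lost its call in 8 of 14 settings. These were DESeq2 (adjusted p = 0.0634), quantile normalization (0.83, adjusted p = 0.148), no filter on low counts (0.0672), the replicate block (0.057), and the models without vehicle replicate 1 (1.12), vehicle replicate 3 (1.04), RSL3-R replicate 1 (0.85) or RSL3-R replicate 3 (1.30).

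GATOR2 relays the sestrin signal, GATOR1 switches the Rag GTPases off and KICSTOR anchors GATOR1. Of these 12 genes 7 were higher and 4 lower in erastin-R cells (median log2 fold change 0.41), and 4 were higher and 5 lower in RSL3-R cells (median 0.09), against 54% and 48.7% of all genes called and medians of all genes of -0.004 and 0.005. The GATOR2 gene WDR24 was at 12.3 ± 0.91 CPM in vehicle, 26.7 ± 2.85 for erastin-R and 15.1 ± 1.77 for RSL3-R cells, and was differentially expressed in erastin-R cells (1.11, adjusted p = 2.93e-06). SEC13, a GATOR2 subunit that also serves the COPII coat, was at 94 ± 3.83, 176 ± 4.99 and 84.6 ± 1.98 CPM, and differed between RSL3-R and erastin-R cells by -1.06 (adjusted p = 1.18e-08). Within KICSTOR, C12orf66 was higher in both populations (1.41 and 1.42, adjusted p = 1.72e-06 and 1.87e-06), while ITFG2 (-1.01 and -0.58, adjusted p = 3.72e-05 and 0.00278) and KPTN (-0.71 and -1.11, adjusted p = 0.00671 and 0.000396) were lower in both.

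Among 5 amino acid sensor genes tested, SLC38A9, the lysosomal arginine sensor, was lower in erastin-R cells (-0.53, adjusted p = 0.000196). LARS, the leucyl-tRNA synthetase, was the only one of the 5 that was higher in both populations, at 213 ± 10.4, 330 ± 21.6 and 422 ± 13.7 CPM (log2 fold changes 0.63 and 0.98, adjusted p = 1.89e-06 and 2.8e-08). CASTOR1, an arginine sensor, had the largest fitted change (1.04 in erastin-R cells, adjusted p = 0.118) at under 1 CPM and was not called. Of 12 Rag and Ragulator genes 8 were not called for erastin-R and 7 for RSL3-R cells, with medians of 0.04 and -0.04. Over all genes 54% and 48.7% were called. The largest change there was that of FNIP1, a partner of folliculin (0.60, adjusted p = 4.72e-06, and 0.52, adjusted p = 2.35e-05).

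Among 9 genes of AMPK, the energy sensor that activates TSC2, and its activators, 6 were higher in erastin-R cells (median 0.36) and 4 in RSL3-R cells (median 0.19), with 1 lower in each. PRKAB2, a regulatory beta subunit, was at 25 ± 2.2, 55.2 ± 1.59 and 30.8 ± 1.01 CPM in vehicle, erastin-R and RSL3-R cells (log2 fold change 1.14 in erastin-R, adjusted p = 6.1e-08). Of 14 substrates and effectors of mTORC1, 7 were higher and 4 lower in erastin-R, and 6 higher and 2 lower in RSL3-R cells. For both lists, the shares over all genes were 27.1% higher and 26.8% lower in erastin-R, and 23.8% higher and 24.9% lower in RSL3-R cells. ULK1, the autophagy kinase that mTORC1 holds off, was at 67.2 ± 3.19, 146 ± 22 and 151 ± 6.59 CPM (1.12 and 1.17, adjusted p = 3.72e-07 and 2.72e-07). EIF4EBP1, a repressor of translation that mTORC1 inactivates, was higher in both populations (0.55 and 0.92, adjusted p = 6.62e-05 and 6.04e-07), and EIF4EBP2 was lower in both (-0.59 and -0.40, adjusted p = 2.27e-06 and 8.94e-05). LPIN1, a phosphatidate phosphatase, was at 120 ± 2.09, 66.8 ± 5.75 and 144 ± 1.19 CPM, and RSL3-R exceeded erastin-R cells by 1.11 (adjusted p = 2.52e-08).

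Of 14 kinases and adaptors around AKT, 5 were higher and 4 lower in erastin-R (median 0.12) and 4 higher and 5 lower in RSL3-R cells (median -0.07), so that 9 of 14 were called in each, against 54% and 48.7% of all genes. IRS2, an insulin receptor substrate, was at 72.2 ± 1.93, 104 ± 24.4 and 50.6 ± 4.3 CPM, and alone was differentially expressed, with less in RSL3-R than in erastin-R cells (-1.03, adjusted p = 2.72e-05). AKT1 was higher in erastin-R (0.25, adjusted p = 0.00496) and lower in RSL3-R cells (-0.37, adjusted p = 0.000399).

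**Figure D4:**
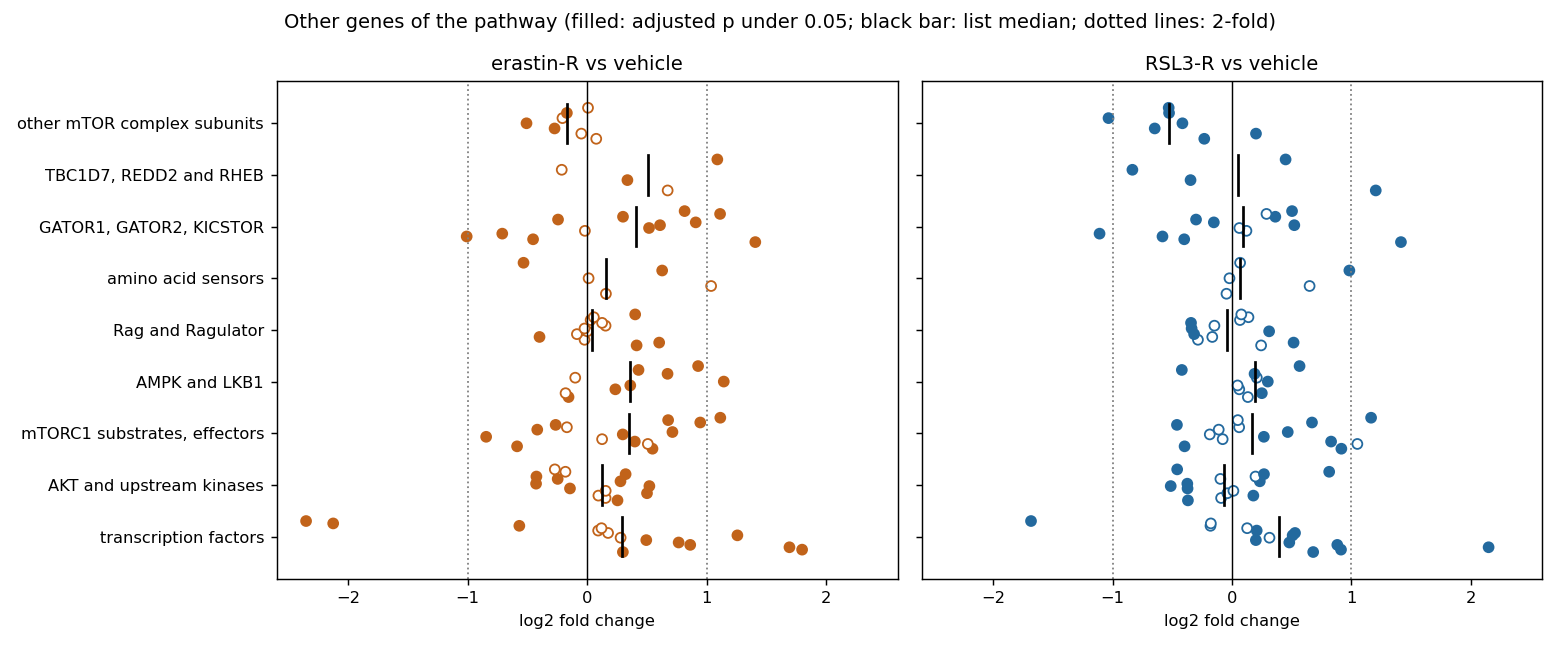
Log2 fold change against vehicle (horizontal axes) of the other genes of the pathway, by list (vertical axis), in erastin-R (left) and RSL3-R cells (right). Filled points have an adjusted p under 0.05, and black bars are list medians. The list of other mTOR complex subunits also holds assembly factors such as TELO2 and TTI1. Its median, -0.53, is the lowest in RSL3-R cells.

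The transcription factors known to control sestrins and REDD1 were also measured. Of 14, 7 were higher and 3 lower in erastin-R cells (median 0.29), and 9 were higher and 1 lower in RSL3-R cells (median 0.40). Over all genes 54% were called in erastin-R cells (27.1% higher, median -0.004) and 48.7% in RSL3-R cells (23.8% higher, median 0.005). ATF4 was at 299 ± 4.92 CPM in vehicle, 368 ± 12.4 for erastin-R and 479 ± 16.7 for RSL3-R cells (0.30 and 0.68, adjusted p = 0.00034 and 2.19e-07). DDIT3 (CHOP), which lies antisense to MARS, was at 7.54 ± 0.913, 24.4 ± 2.98 and 33.5 ± 1.65 CPM and was differentially expressed in both populations (1.69 and 2.15, adjusted p = 7.33e-08 and 6.07e-09). These 2 genes had the same order of conditions as SESN2. HIF1A and CEBPB were highest in erastin-R cells, as was DDIT4. HIF1A was at 576 ± 42.7 CPM in vehicle and 820 ± 43.5 in RSL3-R cells, and its change in erastin-R cells was 1.26 (adjusted p = 1.9e-08). CEBPB was at 112 ± 6.11, 391 ± 100 and 211 ± 13.9 CPM (1.80 in erastin-R cells, adjusted p = 2.18e-07). FOXO1 and FOXO3 were higher in both populations, with 0.77 and 0.50 in erastin-R and 0.48 and 0.20 in RSL3-R cells (adjusted p = 1.37e-05, 1.77e-05, 0.000933 and 0.0182).

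TP73 was lower in both populations, from 2.85 ± 0.311 CPM to 0.549 ± 0.174 and 0.879 ± 0.157 (-2.35 and -1.68, adjusted p = 1.9e-05 and 0.000219). TP63 was at 0.358 to 1.11 CPM in vehicle, 0.0596 to 0.318 in erastin-R and 0.468 to 0.645 in RSL3-R cells. It passed the test in erastin-R cells (adjusted p = 0.0153), but not without vehicle replicate 3 (adjusted p = 0.0989) or erastin-R replicate 3 (adjusted p = 0.0629), and no fold change is given at such low counts.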

How the data were processed

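The 9 libraries were made from polyadenylated RNA of the MDA-MB-231 line, and the sample labels gave condition and replicate number. The authors deposited raw counts of reads per gene without normalization, and the submitters' processing notes name HISAT2 2.0.5 and featureCounts 1.5.0-p3. The methods state that uniquely mapped reads in exons were used. The genome build and the use of strand are not given in the sources used here, but all 58735 genes had the coordinates of GENCODE 29 (GRCh38). FPKM values that the authors derived from these counts were deposited too, and were used here only to compare levels between genes. They depend on the gene length they used.

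Differential expression was tested with edgeR 4.0.16 in R 4.3.3 (quasi-likelihood test, TMM, filterByExpr, all 9 libraries in 1 model), and p values were adjusted over the 16188 genes tested. Replicates varied by 8.56% (square root of the common dispersion). CPM were scaled with the TMM factors. Alternatives were DESeq2 1.42.0, upper-quartile scaling, limma 3.58.1 after quantile normalization, no filter on low counts, a replicate block, only the 2 conditions compared, and each library left out in turn. The fits were checked on simulated data. The 10 genes and the lists were chosen with earlier results of these data known. Genes were named from the lists where they were differentially expressed in any comparison, or had the largest change where none was, and EIF4EBP1, EIF4EBP2, MAPKAP1, MLST8, TTI1, RHEB, LARS, AKT1, SLC38A9, ATF4, FOXO1 and FOXO3 were named after their values were seen. Genes whose exons overlap one of the 10 were named where their counts reached 10% of that gene's. Promoter windows and their motifs were taken from RefSeq sequence, and printed stretches were trimmed to bases outside GENCODE 29 exons except where stated. Python 3.11.15 with matplotlib 3.10.9 drew the figures. The listed symbol C7orf60 was not found in the counts under that name. A single result is not reported here.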

Additional observations from a re-analysis of the deposited data

How the results depend on the processing

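Over the 15 alternatives, 409 of 450 log2 fold changes of the 10 genes kept their direction and side of the threshold, 23 lost and 10 gained a call, and 8 changed sign, none of them called. The sign changes were DDIT4 in RSL3-R against vehicle (0.007 without vehicle replicate 1, range -0.214 to 0.007 when a library was left out), RPTOR between the populations (0.029 with upper-quartile scaling, 0.024 with quantile normalization), and SESN1 (-0.009 to 0.207 in erastin-R and -0.033 to 0.228 in RSL3-R cells when a library was left out, and between the populations -0.121 to 0.137 when a library was left out and -0.099 with quantile normalization). The number of the 10 genes called higher in erastin-R cells was 7 in the analysis reported, 6 with upper-quartile scaling, quantile normalization, the replicate block and a model of only the 2 conditions, and 5 to 7 when a library was left out (5 without vehicle replicate 1 or 2). The number called lower in erastin-R cells was 2 with upper-quartile scaling and with quantile normalization, and 1 to 2 when a library was left out. The number called lower in RSL3-R than in erastin-R cells was 2 with upper-quartile scaling, quantile normalization and a model of only the 2 conditions, and 2 to 5 when a library was left out. The counts of the 10 genes that were differentially expressed were the same in all settings. Of 327 values of the other pathway genes that were differentially expressed, 312 kept their call and 15 lost it, all of DDIT4L and TP63.

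Upper-quartile scaling moved the median of all genes between the populations by 0.101, from -0.024 to 0.077, and the share of called genes that were higher from 45.4% to 58.9%. Of the differentially expressed genes 66.4% were higher, against 76.5% with upper-quartile scaling and 55.1% with quantile normalization. Relative to the median of all genes, MTOR was at -0.20 with both TMM and upper-quartile scaling, TSC2 at -0.24 with both, and RPTOR at -0.05 with both. Both methods scale each library by a single factor, so this equality follows from the calculation and is no check. With quantile normalization the same values were -0.10 for MTOR, -0.15 for TSC2 and 0.045 for RPTOR. Libraries with the same replicate number did not deviate together over all genes (9 correlations from -0.0904 to 0.0518). The labels do not say whether equal numbers were prepared together. These correlations cannot decide it, because a shared effect on few genes would not show in them. With the replicate block 8438 genes were called in erastin-R, 7508 in RSL3-R and 7614 between the populations, and among the 10 genes only TSC1 in erastin-R cells lost its call (0.20, adjusted p = 0.0584). The cause of these changes was not tested. At 17 to 38 counts per library, DEPTOR is limited by depth.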
